A study of Rattus norvegicus with 12 samples.

Results

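Aortic smooth muscle cells of newborn rats were examined for 10 genes of cartilage matrix and of calcification, namely Acan, Tnn, Comp, Spp1, Mgp, Ankh, Enpp1, Alpl, Sox9 and Runx2. A probe set was counted for a gene when the array annotation gives that symbol and no other, which yielded 10 probe sets of 8 genes among the 31099 probe sets of the array. Acan and Ankh had 2 probe sets each. Sox9 and Runx2, the master transcription factors of cartilage and bone, had none and were not analysed here. The signal filter described under processing kept 9 of the 10 probe sets, and 7 genes with them. The genes were put together with their differences between experiments and with each stimulus already known, so those values are descriptions and carry no test.

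The 12 arrays form 6 groups of 2. Cells were stimulated for 120 min with thrombin at 2 U/ml, with 25 µM of the receptor-activating peptide TRAP, or with the same dose of TRAP following 24 h in 200 ng/ml pertussis toxin (PTX), and each stimulus has its own pair of unstimulated (basal) arrays. All cultures were primary, grown in serum and then held without serum overnight. The labels give neither the strain, nor whether replicates came from separate cultures, nor whether the basal cells of the TRAP after PTX experiment had PTX. The p-values therefore measure the spread between these arrays, which may be technical. Thrombin is the clotting protease that cleaves its receptors open, TRAP opens such a receptor without proteolysis, and PTX uncouples receptors from Gi proteins.

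Vascular calcification is held in check by inhibitors that smooth muscle cells make themselves. Enpp1 makes extracellular pyrophosphate from ATP, Ankh brings ATP and pyrophosphate out of the cell, and Alpl, tissue-nonspecific alkaline phosphatase, breaks pyrophosphate down to phosphate. Mgp, matrix Gla protein, is a vitamin K-dependent inhibitor of calcification in the artery wall, and Spp1, osteopontin, is an acidic phosphoprotein that binds mineral and integrins and is itself a substrate of thrombin. Acan is aggrecan, the large proteoglycan of cartilage, Comp is a thrombospondin of cartilage and tendon, and Tnn is tenascin-W, a matrix protein of developing bone and periosteum.

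Acan, Ankh and Tnn carry the main pattern below, so the 300 bases around their start sites (250 before and 50 after, RefSeq, build GRCr8) are shown. They are the windows chr1:142390701-142391000 (plus strand), chr2:79883201-79883500 (plus strand) and chr13:74919740-74920039 (minus strand), each the promoter and first transcribed bases at the start site that the table uses for its gene. The listed Ankh locus begins at chr2:79883350, before the start site used for its window. Part of the Ankh bases counted as before the start site thus lies inside that locus. Capitals mark GC boxes (GGGCGG or its complement).
Acan: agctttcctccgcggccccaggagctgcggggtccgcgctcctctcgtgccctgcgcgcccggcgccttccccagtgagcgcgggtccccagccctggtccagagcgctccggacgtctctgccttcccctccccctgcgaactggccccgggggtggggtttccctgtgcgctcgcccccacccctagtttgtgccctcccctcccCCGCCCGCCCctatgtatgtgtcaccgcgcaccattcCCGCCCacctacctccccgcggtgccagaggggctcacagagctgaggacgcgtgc
Ankh: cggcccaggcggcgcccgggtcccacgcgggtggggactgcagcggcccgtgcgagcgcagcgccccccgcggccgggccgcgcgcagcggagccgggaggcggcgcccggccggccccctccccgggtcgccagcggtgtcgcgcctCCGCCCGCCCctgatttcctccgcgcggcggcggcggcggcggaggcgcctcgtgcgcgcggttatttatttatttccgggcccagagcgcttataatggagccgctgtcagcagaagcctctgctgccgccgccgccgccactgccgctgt
Tnn: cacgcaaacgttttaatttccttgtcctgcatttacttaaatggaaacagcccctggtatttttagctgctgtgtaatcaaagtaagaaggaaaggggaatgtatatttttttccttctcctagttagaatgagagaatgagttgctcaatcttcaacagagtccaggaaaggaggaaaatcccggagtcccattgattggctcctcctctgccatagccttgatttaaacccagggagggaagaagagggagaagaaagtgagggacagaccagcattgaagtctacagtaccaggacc
The windows of Acan and Ankh hold 73.0% and 78.3% G and C, and that of Tnn holds 43.7%, against a median of 51.7% over 33469 promoters. Acan has 3 GC boxes, beginning 43, 39 and 6 bases before the start site, and Ankh has 2, beginning 102 and 98 bases before it, with neighbours in each gene overlapping, while Tnn has none. A GC box occurs in 33.1% of all these promoters. None of the 3 windows holds, on either strand, the letters TGANTCA of AP-1 sites (7.33% of all promoters), TGACGTCA of cyclic AMP response elements (1.83%), ACAAAG of SOX sites (18.8%), TGTGGT of RUNX sites (17.3%) or TATAAA (14.2%). This says only that these letters are not in these windows. Promoters of 7 of the 10 genes were in the table.

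The arrays do not all group by their labels. Among the 8 arrays of the TRAP experiments, the acute-phase gene Saa3 was at signals of 222.5 to 420.9 on TRAP replicate 1, TRAP after PTX replicate 2 and both basal arrays of the TRAP after PTX experiment. It was at 15.9 to 22.8 on TRAP replicate 2, TRAP after PTX replicate 1 and both basal arrays of the TRAP experiment. Replicate 1 of TRAP and replicate 1 of TRAP after PTX thus lie apart from their own basal arrays, each with the basal arrays of the other experiment. Whether these 2 arrays were exchanged was not tested and is not in the labels, so the TRAP and TRAP after PTX changes below hold for the arrays as labelled. Changes of the genes are given with and without these arrays. Median signals were 39.7 to 40.6 on arrays of the thrombin experiment and 43.6 to 53.6 on those of the TRAP experiments. All 9 smooth muscle markers were above the filter, with Acta2, smooth muscle actin, at 4568.2 to 6436 in the thrombin experiment and 7322.1 to 9115.4 in the TRAP experiments. Of 7 chondrocyte markers with a probe set, only Col9a2 passed the filter, and Col2a1, the defining collagen of cartilage, was at 7.0 to 30.2 in the thrombin experiment and 16.2 to 28.1 in the TRAP experiments. Of 5 osteoblast markers only Phex passed, and Bglap, osteocalcin, was at or below 3.7 on every array.

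**Figure D1:**
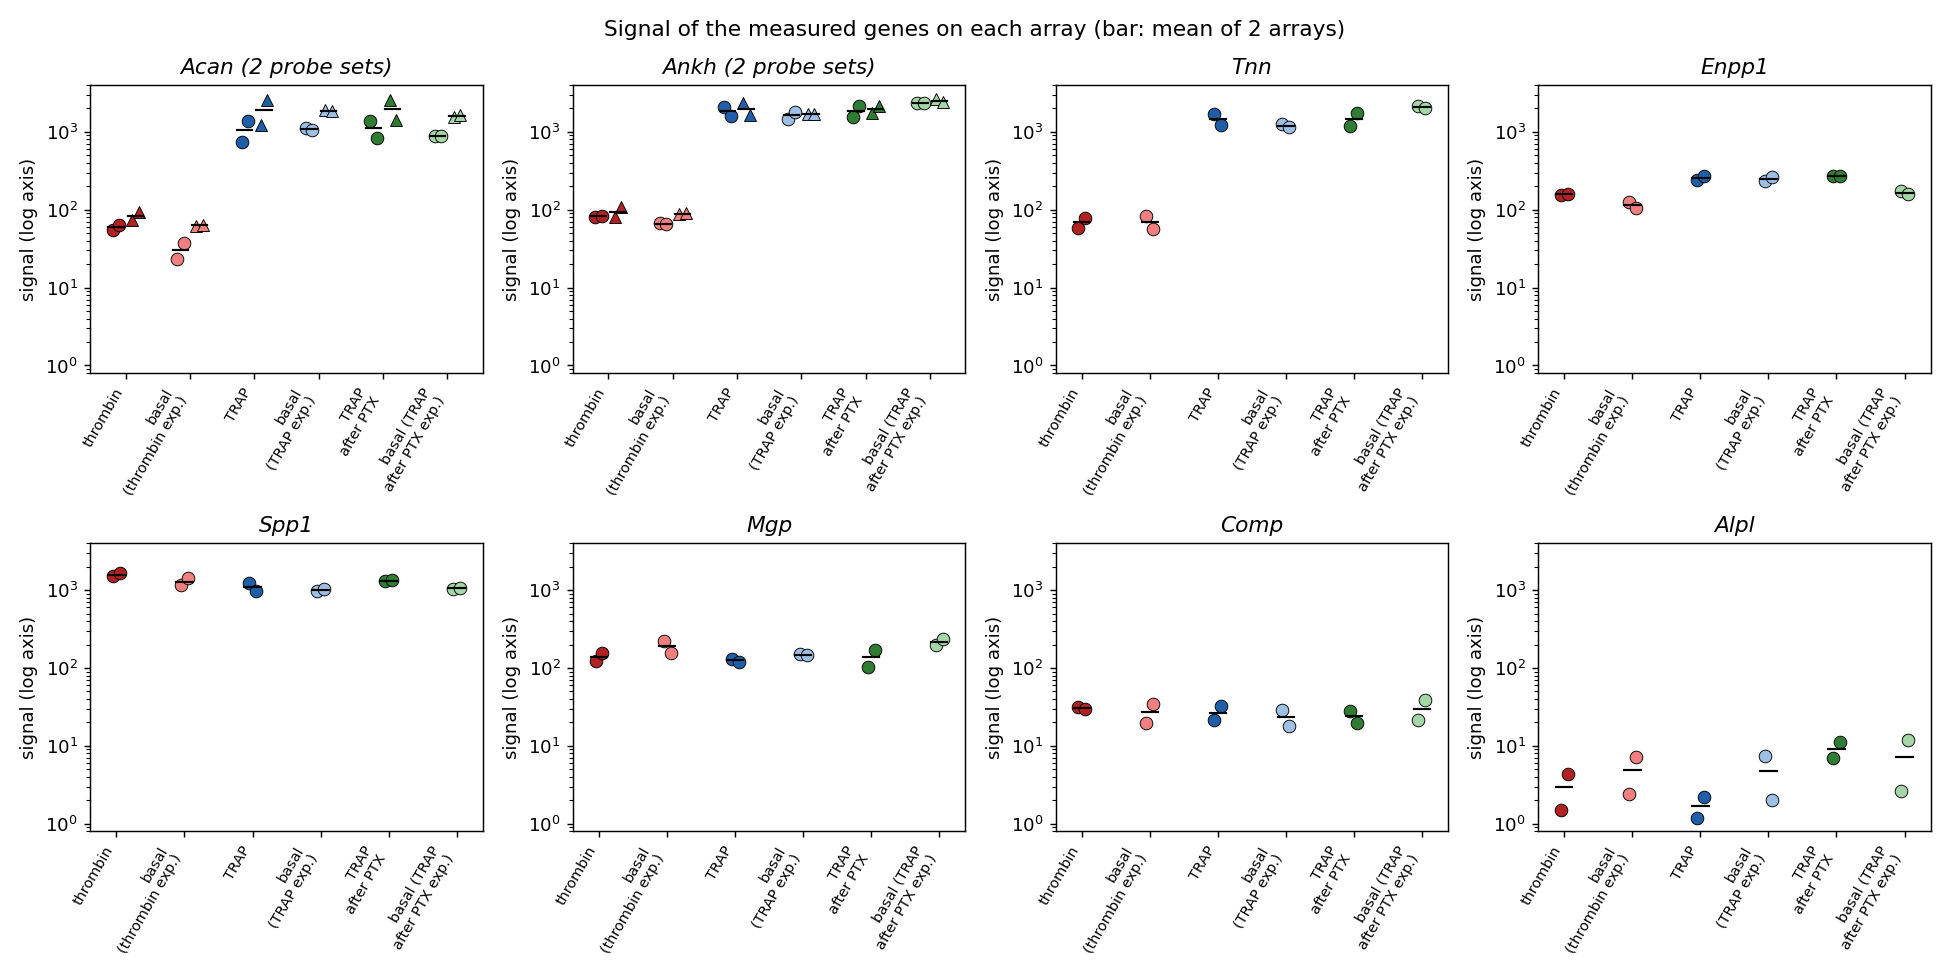
Signal on each array (log axis) for the 8 genes with a probe set, with circles and triangles for the first and second probe set of a gene and a bar at the mean of 2 arrays; exp. stands for experiment. Acan, Ankh and Tnn lie at or below 107.1 on every array of the thrombin experiment and at or above 750.5 on every array of the TRAP experiments, and Alpl is at or below 11.9 throughout.

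The unstimulated cultures of the thrombin experiment and of the TRAP experiments, which share 1 source description in the labels, differed in Acan, Ankh and Tnn by about 4 log2 units. In the brighter Acan probe set the signal was 61.7 and 64.2 on the basal arrays of the thrombin experiment. It was 1879 and 1842.2 on the basal arrays of the TRAP experiment and 1530 and 1637 on those of the TRAP after PTX experiment. The arrays of the thrombin experiment are all low, those of the TRAP experiments are all high, and no value lies between. The difference, thrombin experiment minus TRAP experiments, was -4.46 ± 0.24 (SE) on the scale of log2(signal + 16), and -4.45 ± 0.22 in the other probe set.

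Ankh, which brings pyrophosphate and ATP out of the cell, was at 87.2 and 91.2 on the basal arrays of the thrombin experiment. It was at 1707.2 and 1694.5 on the basal arrays of the TRAP experiment and at 2626.1 and 2405.9 on those of the TRAP after PTX experiment. The groups are again far apart, with a log2 difference of -4.31 ± 0.14 (SE), and -4.58 ± 0.13 in its other probe set. Tnn was at 83.9 and 56.0 on the basal arrays of the thrombin experiment. It was at 1251.3 and 1140.7 on the basal arrays of the TRAP experiment and at 2162.4 and 2001.1 on those of the TRAP after PTX experiment. The log2 difference of Tnn was -4.23 ± 0.17 (SE). On this scale the 5 probe sets stand for levels 18.8 to 23.9 times lower in the thrombin experiment, and the added constant of 16 makes these folds smaller than the ratios of the signals themselves.

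These 5 probe sets are among 36, or 0.193% of the 18625 tested, that differed by at least 3 log2 units in either direction, a limit chosen after their values were seen. A probe set's brightness depends on its sequence, and signals of separate genes are therefore not set against each other. The 5 rank from 4 to 9 among the most lowered probe sets. The plot of all tested probe sets shows them in the left tail, apart from the bulk.

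**Figure D2:**
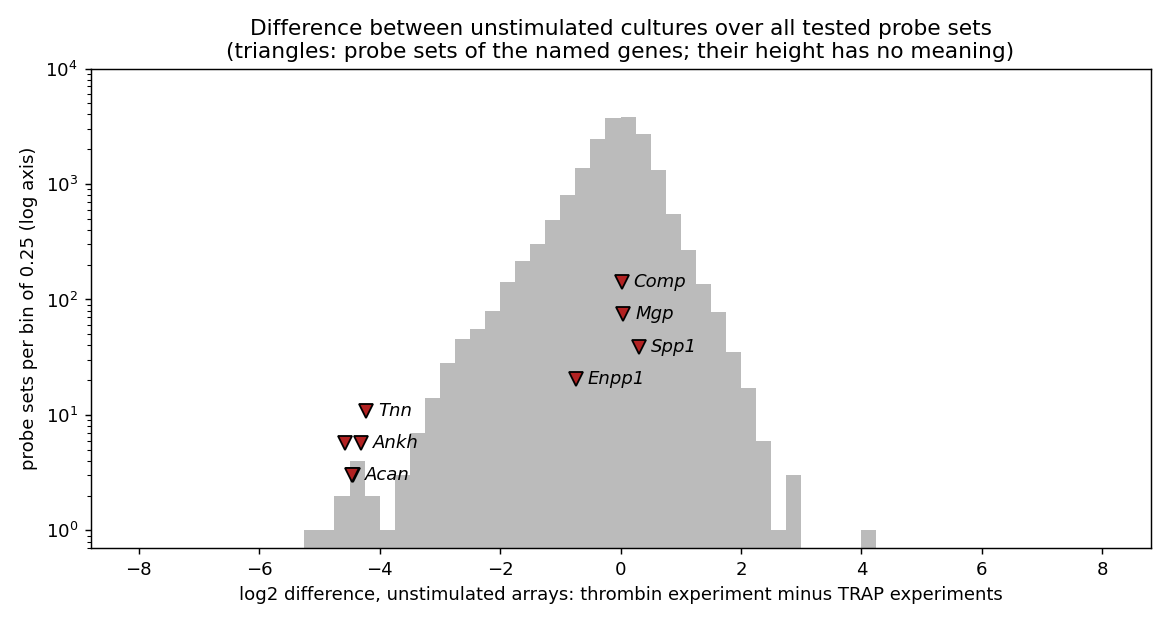
Number of tested probe sets (log axis) by their log2 difference between unstimulated arrays, thrombin experiment minus TRAP experiments; triangles mark the 9 probe sets of the 7 genes kept. The 5 probe sets of Acan, Ankh and Tnn lie between -4.58 and -4.23, and Enpp1 (-0.74), Spp1 (0.30), Mgp (0.05) and Comp (0.02) lie within the bulk.

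The remaining genes differed far less between the basal cultures. Enpp1, the enzyme that makes pyrophosphate, was at 127 and 105.4 on the basal arrays of the thrombin experiment. It was at 236.7 and 264.8 on the basal arrays of the TRAP experiment and at 172.5 and 159.3 on those of the TRAP after PTX experiment. These values do not overlap either, as in 55.6% of all tested probe sets, and the log2 difference was -0.74 ± 0.11 (SE). Osteopontin, Spp1, was at 1146.7 and 1410.4 on the basal arrays of the thrombin experiment, above the 975.7 to 1059.7 of the 4 basal arrays of the TRAP experiments, a log2 difference of 0.30 ± 0.10 (SE) that was 0.45 or 0.16 without basal replicate 1 or 2 of the thrombin experiment. Mgp was at 224.9 and 153.5 on the basal arrays of the thrombin experiment and spanned 148.6 to 232.4 on those of the TRAP experiments, so the groups overlap (0.05 ± 0.18, SE). Comp, the cartilage thrombospondin, overlapped too (0.02 ± 0.23, SE), at 19.7 and 34.9 on the basal arrays of the thrombin experiment and 18.0 to 38.4 on those of the TRAP experiments. It is the dimmest gene kept, at percentile 42.6 of the mean log2 signal against a filter at 40. Alpl, below the filter at percentile 11.8, was at 2.4 and 7.3 on the basal arrays of the thrombin experiment and at 2.0 to 11.9 on those of the TRAP experiments.

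In the fit over all probe sets, 5 of the 7 genes passed an adjusted p of 0.05 in this comparison, 4 lower and 1 higher in the thrombin experiment, as did 46.4% of all tested probe sets. Since the genes were chosen by this difference, nothing is read from the count. Their median difference was -0.74, against -0.02 over all probe sets. The experiment and anything that went with it, such as the cell preparation, cannot be told apart here, and in bulk RNA fewer cells of a type and less RNA per cell cannot be told apart. Several cell markers moved with these genes. Myocd, the coactivator of contractile genes, was at 18.0 to 45.2 in the thrombin experiment and 394.5 to 660.3 in the TRAP experiments. The adventitial fibroblast marker Pdgfra was at 41.5 to 71.1 in the thrombin experiment and 234.8 to 390 in the TRAP experiments. The proliferation marker Mki67 was at 232.9 to 333.9 in the thrombin experiment and 515.4 to 1095.7 in the TRAP experiments. Summed signals of the smooth muscle list were 9908.9 to 13587 in the thrombin experiment and 15517.5 to 20017 in the TRAP experiments (9 of 9 above the filter). Those of the fibroblast list were 5433.9 to 6089.7 in the thrombin experiment and 7172.6 to 8156.2 in the TRAP experiments (4 of 5). The chondrocyte list summed to 79.0 to 133.1 in the thrombin experiment and 81.0 to 181.1 in the TRAP experiments (1 of 7), and the osteoblast list to 24.4 to 33.1 in the thrombin experiment and 29.6 to 70.4 in the TRAP experiments (1 of 5). Leukocyte sums were 576.1 to 671.6 in the thrombin experiment and 351.9 to 477.1 in the TRAP experiments (2 of 6), endothelial sums were 75.4 to 108 in the thrombin experiment and 39.2 to 90.9 in the TRAP experiments (1 of 5), and no Schwann cell marker passed the filter. A sum mostly follows its brightest markers and is no measure of cell content. Most of the leukocyte sum was Cd14, at 503.7 to 578.4 in the thrombin experiment and 296.9 to 404.5 in the TRAP experiments, while Ptprc was at or below 12. Most of the fibroblast sum was Mfap5, at 4658.4 to 4954 in the thrombin experiment and 5380.7 to 6222 in the TRAP experiments. The part of these markers in the difference was not tested.

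Other genes of the same pathways, from lists of genes outside the 10, were tested in this comparison with limma and Benjamini-Hochberg adjustment over all probe sets. The lists were chosen with earlier results of these data known. Their counts and p-values, here and for the stimuli below, are therefore no independent test of the pathways. Of all probe sets 21.6% were higher and 24.9% lower in the thrombin experiment, 4015 and 4630. The larger side turned when arrays were centred on their median (4530 higher and 4130 lower) or quantile normalized (4609 and 4183). Among tenascins, thrombospondins and receptors of osteopontin, 8 of 11 tested genes were lower and 1 higher, with a median of -0.62. Tnc, tenascin-C of remodelling arteries, was at 718.4 and 725.3 on the basal arrays of the thrombin experiment and at 4542.8 to 7468 on those of the TRAP experiments, a log2 difference of -2.97 ± 0.16 (SE, adjusted p = 7.46e-09). The integrin subunit gene Itga8 was lower by a log2 difference of -2.73 ± 0.12 (adjusted p = 1.16e-09) and Thbs4, like Comp a pentameric thrombospondin, by -2.25 ± 0.15 (adjusted p = 6.19e-08). Among arterial proteoglycans and hyaluronan synthases 6 of 10 were lower and 3 higher, with a median of -0.75. Versican, Vcan, the hyaluronan-binding relative of aggrecan, was at 63.9 and 61.9 on the basal arrays of the thrombin experiment and at 378.5 to 515.2 on those of the TRAP experiments, a log2 difference of -2.51 ± 0.14 (adjusted p = 1.45e-08). The small leucine-rich proteoglycans Lum (-2.21 ± 0.22, adjusted p = 2.62e-06) and Aspn (-1.91 ± 0.17, adjusted p = 1.25e-06) were lower as well.

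The lists closer to bone and cartilage were mixed. Of 15 osteoblast and bone matrix genes tested, 6 were lower and 2 higher (median -0.24). Postn, periostin, was lower (-1.98 ± 0.09, adjusted p = 2e-09), while the bone morphogenetic proteins Bmp6 (1.60 ± 0.18, adjusted p = 7.39e-06) and Bmp2 (1.37 ± 0.13, adjusted p = 2.38e-06) were higher. Of 32 further cartilage genes 25 had a probe set and 7 passed the filter. Of these, 3 were lower and 2 higher (median -0.19), with Col11a1, a fibrillar collagen of cartilage, higher (1.07 ± 0.12, adjusted p = 8.05e-06) and Matn2 (-0.85 ± 0.17, adjusted p = 0.000961) and Pth1r (-0.76 ± 0.15, adjusted p = 0.00074), the receptor of parathyroid hormone that also stands in the osteoblast list, lower. Phosphate, pyrophosphate and adenosine genes split into 3 higher and 3 lower of 13 (median 0.00), with the phosphate importer Slc20a2 (-0.90 ± 0.11, adjusted p = 2.07e-05) and the adenosine receptor Adora2b (-1.12 ± 0.17, adjusted p = 0.000109) lower and Stc2 (1.25 ± 0.26, adjusted p = 0.00157) higher. Of 11 genes of calcification inhibitors, the vitamin K cycle and matrix vesicles, 2 were higher and 2 lower (median 0.10), with Cst3 (0.83 ± 0.09, adjusted p = 4.37e-06) and the vitamin K-dependent Gas6 (0.72 ± 0.08, adjusted p = 8.56e-06) higher and fibrillin-1, Fbn1 (-0.78 ± 0.11, adjusted p = 4.42e-05), lower.

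Some genes traced the same pattern over all 12 arrays. By Pearson's correlation of log2 signals, the genes most like Acan were Itga8 (r = 0.9968), Slit3 (0.9968) and Cspg4 (0.9963). Those most like Tnn were Cemip (0.9979), Ankh (0.9975) and Hs2st1 (0.9945), and those most like Ankh were Tnn (0.9975), Cemip (0.9974) and Abi3bp (0.9964). The arrays fall into 2 clusters, 4 of the thrombin experiment and 8 of the TRAP experiments, which these correlations mostly trace. Over the 8 arrays of the TRAP experiments alone they were 0.885, 0.927 and 0.867 for the Acan genes, 0.917, 0.979 and 0.805 for the Tnn genes and 0.979, 0.914 and 0.871 for the Ankh genes. For Enpp1 they were Coro1c (0.9638), Khdc4 (0.9629) and Luc7l (0.9471), or 0.862, 0.883 and 0.822 over the 8 arrays. These 8 arrays are among the 12 by which the genes were picked, and they fall into 2 sets by Saa3. The values over the 8 arrays are therefore a description and no separate check.

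Within the TRAP experiments, Acan ran opposite to Ankh and Tnn, and along the 2 sets of arrays rather than the labels. Ankh was at 2173.6 to 2626.1 on the 4 arrays with high Saa3 and at 1650.3 to 1740.4 on the 4 with low Saa3. Tnn was at 1674.3 to 2162.4 on the first 4 and at 1140.7 to 1251.3 on the others. Acan was the reverse, at 1227.4 to 1637 with high Saa3 and at 1842.2 to 2583.8 with low Saa3, and none of these 3 ranges overlap. This division of the arrays was known from earlier results of these data, is not one of the study's groups, and carries no test. Enpp1 did not follow it, at 159.3 to 273.3 with high Saa3 and at 236.7 to 273 with low Saa3. Mki67, a proliferation marker, was at 515.4 to 607.5 with high Saa3 and at 900.3 to 1095.7 with low Saa3, and its part in these differences was not tested.

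**Figure D3:**
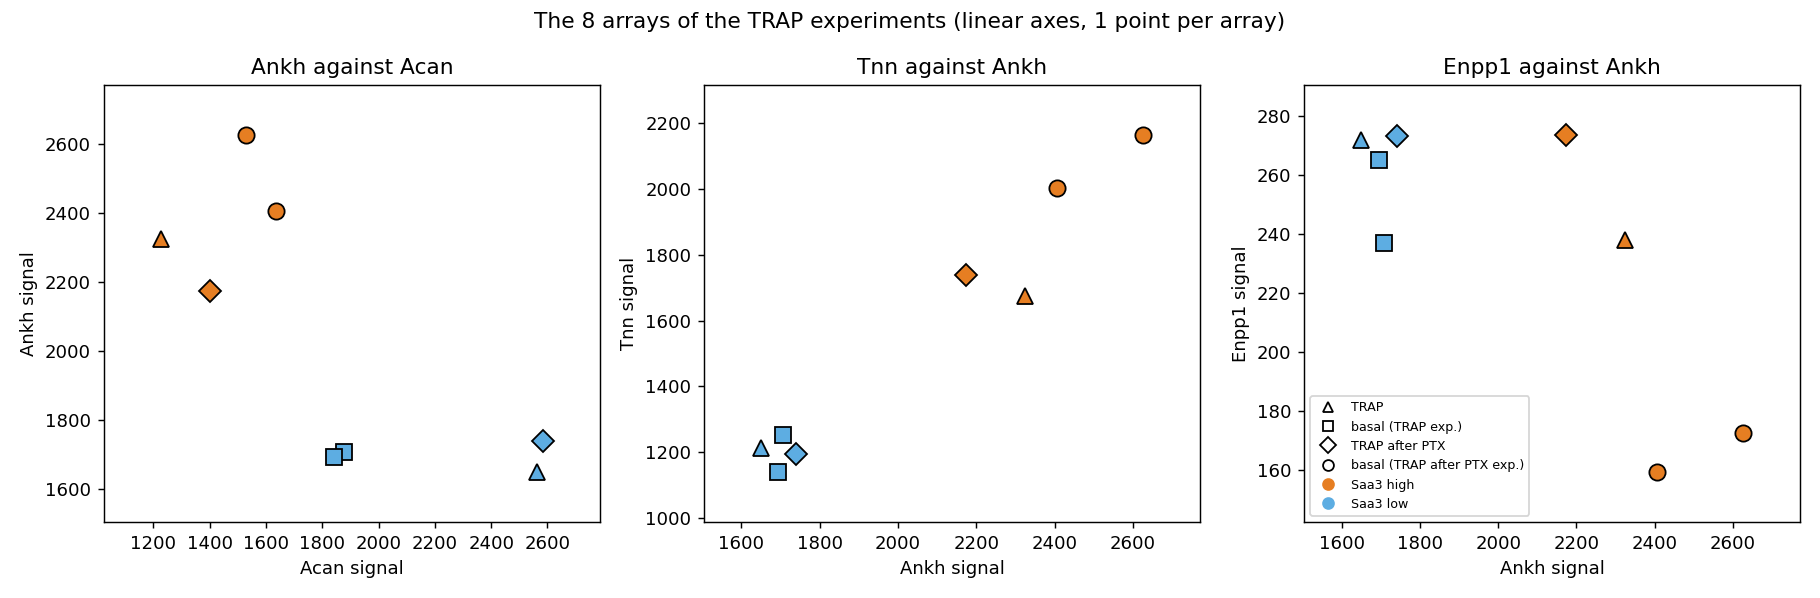
Signals on the 8 arrays of the TRAP experiments, 1 point per array, with shape for the group and colour for the Saa3 level. In the Acan and Ankh panel the 4 arrays with high Saa3 have Ankh at or above 2173.6 and Acan at or below 1637, and in the last panel the 2 basal arrays of the TRAP after PTX experiment have the lowest Enpp1, 172.5 and 159.3.

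The basal arrays of the 2 TRAP experiments were compared as well. These 4 arrays are also the controls of the stimuli and stand in the basal difference by which the genes were chosen, so the values are a description. Tnn was 0.79 ± 0.20 (SE, log2) higher in the TRAP after PTX experiment than in the TRAP experiment, Ankh 0.56 ± 0.16 higher and Mgp 0.49 ± 0.21 higher. Enpp1 differed by -0.55 ± 0.13 and Acan by -0.23 ± 0.28. The groups did not overlap in Tnn, Ankh, Mgp, Enpp1, Acan and Spp1 (0.06 ± 0.12), 6 of the 7 genes, beside 43.1% of all probe sets, and they overlapped in Comp (0.21 ± 0.27). None of the 7 genes was called in limma's fit over all probe sets, and only 0.043% of all probe sets did (0.0215% higher and 0.0215% lower). At an unadjusted p under 0.05 there were 4, namely Ankh, Tnn, Mgp and Enpp1, beside 12.3% of all probe sets. Without TRAP replicate 1 and TRAP after PTX replicate 1, which enter through the shared spread, or with the 4 basal arrays alone, Tnn and Ankh were called at the same differences, and nothing is read from it. The 2 basal groups also lie in different sets of arrays, so the experiment and the set cannot be told apart. In limma's test none of the genes of the 6 lists described above passed either. At an unadjusted p under 0.05, which 12.3% of all probe sets reached, there were 2 of 7 cartilage, 5 of 10 proteoglycan, 1 of 15 osteoblast, 2 of 13 phosphate and 3 of 11 calcification inhibitor genes, and 4 of 11 tenascins, thrombospondins and receptors.

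After thrombin, Acan, Ankh and Tnn stayed at the low signals of that experiment. Acan was at 73.7 and 93.1 after thrombin, above the 61.7 and 64.2 of its basal arrays, a log2 change of 0.33 ± 0.28 (SE). Its other probe set was at 55.0 and 63.3 after thrombin, against 23.3 and 36.9 on the basal arrays, a change of 0.72 ± 0.25. Both probe sets put the stimulated arrays above the basal ones, at signals far below any array of the TRAP experiments. Ankh (0.06 ± 0.16) and Tnn (-0.01 ± 0.20) overlapped their basal arrays, although the dimmer Ankh probe set did not, at 81.2 and 83.2 after thrombin, against 67.4 and 65.0 on the basal arrays.

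Enpp1 was at 153.6 and 160.8 after thrombin, against 127 and 105.4 on the basal arrays, and Spp1 was at 1507.3 and 1635.4, against 1146.7 and 1410.4 on the basal arrays. In both genes each stimulated array lies above each basal one, with log2 changes of 0.39 ± 0.13 and 0.30 ± 0.12 (SE). The share of all probe sets that separate in this way was not computed. The change of Spp1 was 0.15 without basal replicate 1 and 0.45 without basal replicate 2. Mgp was at 121.7 and 157.6 after thrombin, against 224.9 and 153.5 on the basal arrays, an overlapping change of -0.39 ± 0.21 that was -0.13 without basal replicate 1 and -0.64 without basal replicate 2. Comp, at 31.4 and 30.1 after thrombin, against 19.7 and 34.9 on the basal arrays, overlapped too. By its brightest probe set, none of the 7 genes passed in limma's fit, beside 4.74% of all probe sets called. By that probe set 2, Spp1 and Enpp1, had an unadjusted p under 0.05, beside 18% of all probe sets. The dimmer Acan probe set, which is not in this count, had an unadjusted p under 0.05 too. Nothing is read from these counts because this change served to choose the genes. The median of the 7 genes was 0.13, against -0.04 over all probe sets.

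After TRAP the 2 replicates disagreed. Acan was at 1227.4 and 2564.1 after TRAP, against 1879 and 1842.2 on the basal arrays, so 1 stimulated array was below and 1 above both basal arrays, and the mean change of -0.07 ± 0.28 (SE, log2) describes neither. Ankh was at 2325 and 1650.3 after TRAP, against 1707.2 and 1694.5 on the basal arrays (0.20 ± 0.16), and Tnn at 1674.3 and 1213 after TRAP, against 1251.3 and 1140.7 on the basal arrays (0.25 ± 0.20). The higher array in Ankh and Tnn, and the lower one in Acan, is TRAP replicate 1, whose Saa3 is high. Without it the change was 0.46 for Acan, -0.04 for Ankh and 0.02 for Tnn, from TRAP replicate 2 alone.

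Enpp1 stayed close to its basal arrays, at 237.8 and 271.7 after TRAP, against 236.7 and 264.8 there (0.02 ± 0.13, and 0.11 without TRAP replicate 1). Mgp was at 132.2 and 121 after TRAP, against 149.2 and 148.6 on the basal arrays, lower on each array, with a change of -0.21 ± 0.21 (SE) that was -0.27 without TRAP replicate 1. Comp was at 21.2 and 32.2 after TRAP, against 28.9 and 18.0 on the basal arrays, and overlapped (0.12 ± 0.27, and 0.30 without that array). Spp1 was at 1229.3 and 969.8 after TRAP, against 975.7 and 1035.1 on the basal arrays, so the groups overlap (0.12 ± 0.12, and -0.05 without TRAP replicate 1). In limma's fit none of the 7 genes passed and none had an unadjusted p under 0.05, while 3.9% of all probe sets were called and 16.3% had such an unadjusted p. Nothing is read from this either, since the change with TRAP also served to choose the genes. The median of the 7 genes was 0.12, against -0.04 over all probe sets.

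TRAP after PTX was compared with its own basal arrays, whose treatment with PTX is not stated. Enpp1 was at 273 and 273.3 after PTX and TRAP, against 172.5 and 159.3 on the basal arrays, a log2 change of 0.67 ± 0.13 (SE), and 0.67 without TRAP after PTX replicate 1. Both stimulated arrays lie well above both basal ones, but at the level of the TRAP experiment, whose basal arrays were at 236.7 and 264.8. Spp1 was at 1298.3 and 1348.4 after PTX and TRAP, against 1041.8 and 1059.7 on the basal arrays, a change of 0.33 ± 0.12, and 0.36 without that array. Mgp was at 102.8 and 170.6 after PTX and TRAP, against 199.6 and 232.4 on the basal arrays, lower on each array, with a change of -0.64 ± 0.21 that was -0.31 without that array.

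The genes that differ between the sets of arrays split by replicate once more. Ankh was at 1740.4 and 2173.6 after PTX and TRAP, against 2626.1 and 2405.9 on the basal arrays, and its change of -0.37 ± 0.16 (SE) was -0.21 without TRAP after PTX replicate 1. Tnn was at 1194.6 and 1739.5, against 2162.4 and 2001.1 on the basal arrays, and its change of -0.52 ± 0.20 was -0.26 without that array. Acan was at 2583.8 and 1400.9, against 1530 and 1637 on the basal arrays, and its change of 0.26 ± 0.28 was -0.17 without that array. For these 3 genes the size or the sign of the change thus rests on TRAP after PTX replicate 1. Comp was at 28.0 and 19.7 after PTX and TRAP, against 21.7 and 38.4 on the basal arrays, and overlapped (-0.19 ± 0.27, and -0.34 without that array). Set against the basal arrays of the other experiment, whose Saa3 level it shares, TRAP after PTX replicate 1 had log2 differences of 0.47 for Acan, 0.03 for Ankh and 0.12 for Enpp1. In Tnn, Spp1, Mgp and Comp these differences were 0.0, 0.36, -0.47 and 0.17. TRAP replicate 1 had -0.36 for Acan, -0.11 for Ankh and 0.48 for Enpp1 against the basal arrays whose Saa3 level it shares. In Tnn, Spp1, Mgp and Comp it had -0.31, 0.22, -0.64 and -0.28. In limma's fit 1 of the 7 genes, Enpp1, was called, beside 2.71% of all probe sets. Of the 7, 2 higher (Spp1 and Enpp1) and 3 lower (Ankh, Tnn and Mgp) had an unadjusted p under 0.05, beside 16.9% of all probe sets. Nothing is read from these counts because this change served to choose the genes. The median of the 7 genes was -0.19, against -0.04 over all probe sets. Alpl was at 7.0 and 11.3 after PTX and TRAP, against 2.6 and 11.9 on the basal arrays, at 1.2 and 2.2 after TRAP, against 7.4 and 2.0 on its basal arrays, and at 1.5 and 4.4 after thrombin, against 2.4 and 7.3 on its basal arrays.

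**Figure D4:**
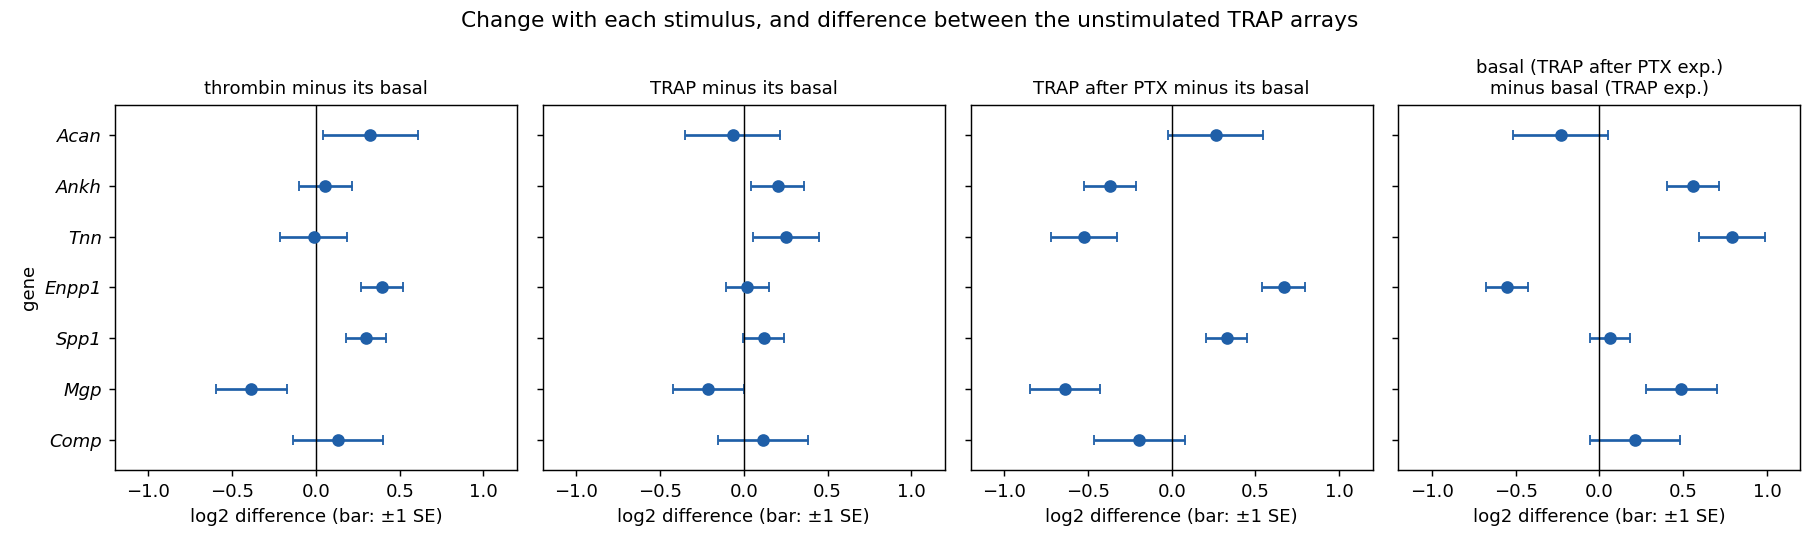
Log2 difference of the 7 genes for each stimulus minus its own basal arrays and, in the last panel, between the basal arrays of the TRAP after PTX and TRAP experiments; points are estimates from 2 arrays against 2 and bars are 1 SE on each side. Enpp1 is at 0.39 after thrombin, 0.02 after TRAP and 0.67 after PTX and TRAP, and -0.55 in the last panel.

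By group means, Acan was highest after PTX and TRAP (1992.4 ± 836), then after TRAP (1895.8 ± 945), in basal cells of the TRAP experiment (1860.6 ± 26.0) and of the TRAP after PTX experiment (1583.5 ± 75.7), then after thrombin (83.4 ± 13.7) and in its basal cells (62.95 ± 1.77; SD, n = 2 each). The first 4 groups do not differ beyond the spread of the stimulated pairs, and their order rests on the replicate 1 arrays set apart above. Without those, Acan was at 2564.1 after TRAP, the highest of the 4, and at 1400.9 after PTX and TRAP, the lowest. Ankh was highest in basal cells of the TRAP after PTX experiment (2516 ± 156), then after TRAP (1987.7 ± 477), after PTX and TRAP (1957 ± 306) and in basal cells of the TRAP experiment (1700.9 ± 8.98), with thrombin (94.15 ± 18.3) and its basal cells (89.2 ± 2.83) last. Tnn was highest in the same group, at 2081.8 ± 114 in basal cells of the TRAP after PTX experiment, 1467.1 ± 385 after PTX and TRAP, 1443.7 ± 326 after TRAP and 1196 ± 78.2 in basal cells of the TRAP experiment. Its lowest groups overlapped, at 68.6 ± 14.3 after thrombin and 69.95 ± 19.7 in the basal cells of that experiment. Stimulated pairs of the TRAP experiments spread over their neighbours in both genes. Without the replicate 1 arrays, TRAP after PTX was above TRAP in Ankh (2173.6 and 1650.3) and in Tnn (1739.5 and 1213).

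Genes of the same pathways called after each stimulus are given beside the share of all probe sets, and no sparing or enrichment of the lists was tested. After thrombin, 6 of the genes in the lists passed in limma's test, beside 4.74% of all probe sets (2.63% higher and 2.1% lower). Bmp4, a bone morphogenetic protein, was at 595.8 and 640.4 after thrombin, against 1589.5 and 1369 on the basal arrays, and fell by 1.23 ± 0.20 (SE, log2; adjusted p = 0.00238). Tnfrsf11b, osteoprotegerin, the decoy receptor of the osteoclast factor RANKL, was at 844.5 and 858.9 after thrombin, against 490.1 and 492.2 on the basal arrays, and rose by 0.77 ± 0.12 (adjusted p = 0.00153). The integrin subunit gene Itga5 rose by 0.75 ± 0.13 (adjusted p = 0.00378), at 303.3 and 294.9 after thrombin, against 180.3 and 163.2 on the basal arrays. These 3 calls held in all 23 alternatives.

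The other 3 calls after thrombin were less firm. Slc20a1, a phosphate importer, rose by 0.44 ± 0.10 (adjusted p = 0.0212), Cd44, a receptor of hyaluronan and osteopontin, by 0.45 ± 0.11 (adjusted p = 0.0325), and Trps1, a transcription factor of growth plate cartilage, fell by 0.50 ± 0.12 (adjusted p = 0.0317). Slc20a1 was no longer called without basal replicate 2 (log2 change 0.36, adjusted p = 0.0957) and without thrombin replicate 1 or 2 (0.45 and 0.43, adjusted p = 0.117 and 0.141). Cd44 lost it without basal replicate 1 or 2 (0.0587 and 0.121) and thrombin replicate 1 or 2 (0.114 and 0.219). Trps1 lost it without basal replicate 1 (0.235) and thrombin replicate 1 or 2 (0.0537 and 0.273), and without either basal array of the TRAP experiment (0.0507 and 0.0508). By list, 1 rose and 1 fell of 15 osteoblast genes, 1 rose of 13 phosphate genes, 2 rose of 11 tenascins, thrombospondins and receptors and 1 fell of 7 cartilage genes. None of 10 proteoglycan genes or 11 calcification inhibitor genes passed, with 2 and 1 at an unadjusted p under 0.05.

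After TRAP, Trps1 was at 257 and 257.8, against 521.9 and 492.2 on the basal arrays, and fell by 0.94 ± 0.12 (adjusted p = 0.000605), a call held in all 23 alternatives. Stc1, a calcium and phosphate-regulating hormone gene, fell by 0.93 ± 0.21 (adjusted p = 0.0273) and Fbn1, the microfibril protein, rose by 0.58 ± 0.12 (adjusted p = 0.0161). Without TRAP replicate 1 and TRAP after PTX replicate 1, Stc1 had a log2 change of -0.70 (adjusted p = 0.217) and Fbn1 of 0.54 (adjusted p = 0.121), with 1 stimulated array left. Stc1 also lost its call without basal replicate 1 or 2 (0.111 and 0.217) and TRAP replicate 1 (0.205), and Fbn1 without basal replicate 2 (0.198) and TRAP replicate 1 or 2 (0.0962 and 0.068). None of 10 proteoglycan, 15 osteoblast and 11 tenascin, thrombospondin and receptor genes passed, with 2, 0 and 2 at an unadjusted p under 0.05, and 1.84% of all probe sets were higher and 2.07% lower.

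After PTX and TRAP, Slc20a1 was the only gene of the lists that passed. It was at 1876.9 and 1838.6, against 1281.4 and 1205.5 on the basal arrays, and rose by 0.57 ± 0.10 (adjusted p = 0.00766), while 1.68% of all probe sets were higher and 1.03% lower. It was not called without basal replicate 2 (adjusted p = 0.074), without TRAP after PTX replicate 1 (0.0669) and without that array and TRAP replicate 1 (0.053), with changes of 0.53 to 0.56. At an unadjusted p under 0.05 there were 2 of 13 phosphate genes, 3 of 15 osteoblast genes, 3 of 11 calcification inhibitor genes, 2 of 11 tenascins, thrombospondins and receptors, and none of 7 cartilage or 10 proteoglycan genes, beside 16.9% of all probe sets. The stimulus comparisons share no basal arrays with each other.

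**Figure D5:**
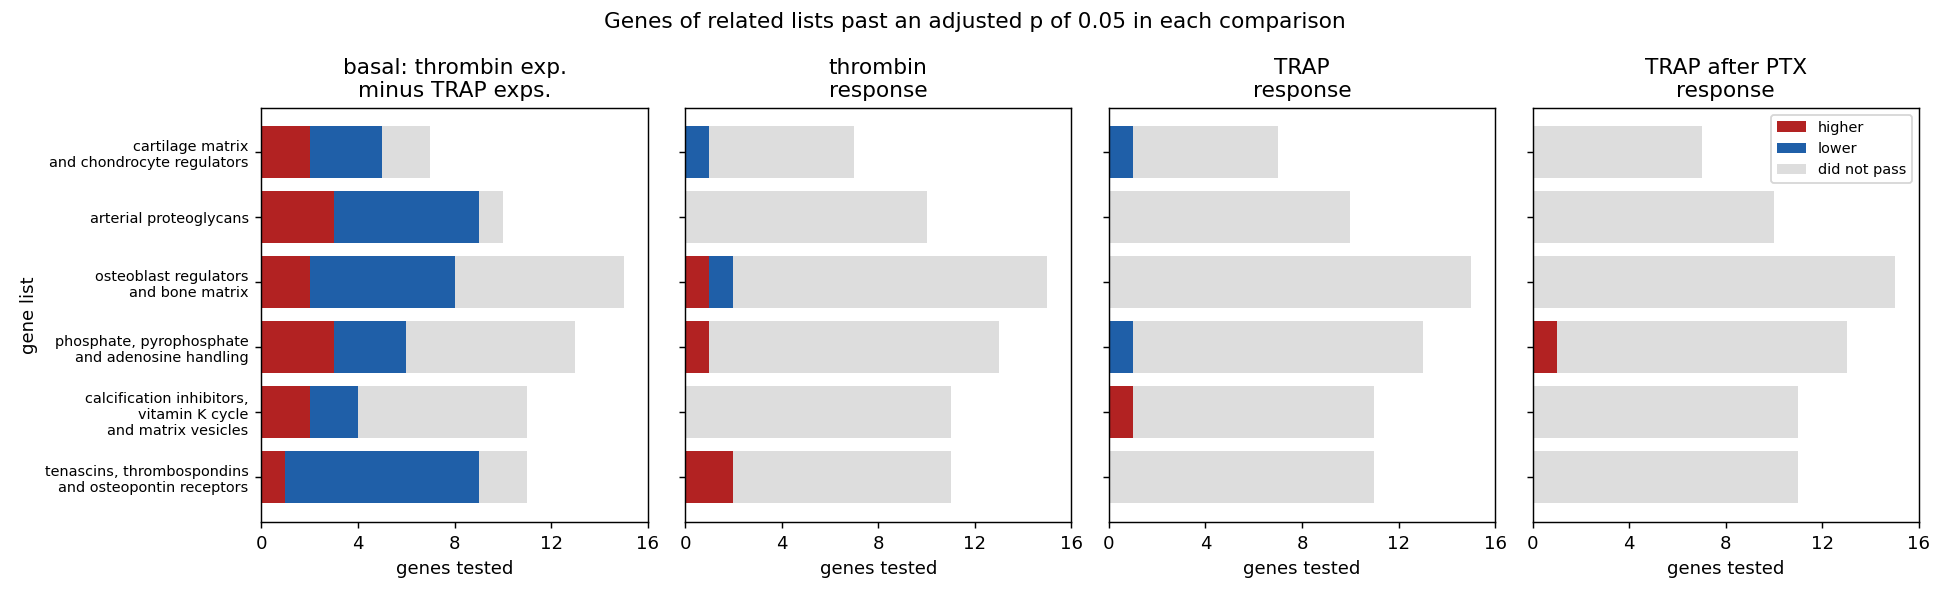
Number of tested genes of each of 6 lists that were higher (red), lower (blue) or did not pass an adjusted p of 0.05 (grey) in the comparison of basal arrays and in the 3 stimulus responses. In the first panel 8 of 11 tenascins, thrombospondins and receptors and 6 of 10 proteoglycans are lower in the thrombin experiment, and no list has more than 2 calls after a stimulus.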

How the data were processed

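RNA was hybridised as biotin-labelled cRNA to 12 1-colour Affymetrix arrays. The authors deposited 1 intensity per probe set and array, linear and not logged, from GCOS 1.4, per the submitters' processing notes. The trimmed mean without the lowest and highest 2% was 200.07 or 200.08 on every array, so each array had been scaled. The annotation gives 1 symbol for 20832 probe sets, several for 436 and none for 9831. No genome build is given for the array data in the sources used here.

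Signals were taken as log2(signal + 16). After leaving out 57 control probe sets, the 18625 probe sets whose mean log2 signal lay above percentile 40 were tested. A gene is represented by its brightest tested probe set. All 6 groups entered a single limma 3.58.1 model, run in R 4.3.3 (intensity trend, 6 residual degrees of freedom, 2-sided, Benjamini-Hochberg over all tested probe sets, threshold 0.05). A check on simulated data compared mean estimates with differences put in between experiments. No stimulus response and no 2 sets of arrays were put into those data. From each list up to 3 called genes with the largest difference are named per comparison, and for the 4 genes with the widest range the 3 best correlated genes. The genes, lists and alternatives (other pseudocounts, filters, scalings, variance models, weights, a replicate block, fewer arrays) were chosen with earlier results of these data known. Precision is limited by having 2 arrays per group.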

Additional observations from a re-analysis of the deposited data

Results flagged for a closer look

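Of 32 genes checked, 3 had every array of one stimulus on one side of its basal arrays and every array of another on the opposite side. The share of all probe sets that do so was not computed, so nothing is read from this count. The differences of these 3 genes were not tested. All TRAP and TRAP after PTX values here include TRAP replicate 1 and TRAP after PTX replicate 1, which lie apart from their own basal arrays, and the basal arrays of the 2 TRAP experiments themselves differ in Saa3. Fbn1, fibrillin-1, changed by 0.58 ± 0.12 (SE, log2) with TRAP and by -0.27 ± 0.12 with TRAP after PTX, a difference of 0.85. Its signal was 3819.9 and 3630.1 after TRAP, against 2825.6 and 2187.7 on the basal arrays, and 2802.3 and 2861.1 after PTX and TRAP, against 3310.1 and 3537.5 on the basal arrays. Stc2, a stanniocalcin, changed by -0.28 ± 0.31 with TRAP and by 0.57 ± 0.31 with TRAP after PTX, a difference of -0.86, at signals of 8.2 to 36.7 on these 8 arrays. Bmp2 changed by -0.10 ± 0.15 with thrombin and by 0.36 ± 0.15 with TRAP after PTX, a difference of -0.46. Its signal was 284 and 289 after thrombin, against 327.9 and 290.3 on the basal arrays, and 165.5 and 121.1 after PTX and TRAP, against 100.2 and 113.8 on the basal arrays.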

How the results depend on the processing

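The differences of Acan, Ankh and Tnn between the basal arrays of the thrombin and TRAP experiments kept their sign in every alternative run, from -4.68 to -3.81, -4.58 to -3.80 and -4.47 to -3.62. The probe sets called in this comparison, 8645, numbered 6535 to 8621 when 1 array was left out. For thrombin, 882 probe sets became 576 with the 4 arrays of the contrast alone and 342 to 918 with 1 array left out (409 without basal replicate 1, 342 and 357 without thrombin replicate 1 or 2). For TRAP, 727 became 1111 with array weights, 486 without replicate 1 of TRAP and of TRAP after PTX, and 208 to 759 with 1 array left out (208 and 246 without basal replicate 1 or 2, 442 and 348 without TRAP replicate 1 or 2). For TRAP after PTX, 505 became 334 without the intensity trend, 305 with array weights, 260 with the arrays of the contrast alone, 166 without replicate 1 of TRAP and of TRAP after PTX, and 149 to 539 with 1 array left out (191 without basal replicate 2, 149 and 292 without stimulated replicate 1 or 2). Between the basal arrays of the 2 TRAP experiments, 8 became 23 with a pseudocount of 64, 1 without a filter, 21 after quantile normalization, 2 without the trend, 201 with the arrays of the contrast alone, 218 without the 2 arrays named above, and 0 to 49 with 1 array left out (0 without the first basal array of the TRAP experiment, 49 without TRAP after PTX replicate 2). With arrays centred on their median, the higher and lower calls were 608 and 261 for thrombin (490 and 392 without centring), 434 and 263 for TRAP (342 and 385), 412 and 127 for TRAP after PTX (313 and 192) and 4 and 2 between the basal TRAP groups (4 and 4, and 8 and 13 after quantile normalization). In the basal comparison of the thrombin and TRAP experiments the larger side turned, with 4530 higher and 4130 lower after centring and 4609 and 4183 after quantile normalization (4015 and 4630 without). The causes of these shifts were not tested.

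Replicates with the same number deviated together with r = 0.134, 0.104 and 0.022 between stimulated and basal arrays of the thrombin, TRAP and TRAP after PTX experiments, above 0 in each but not above 0.1 in all, so the numbers were not taken as pairs. A group left with 1 array is assumed to vary like the others. With a replicate block the calls were 8778, 859, 747 and 469 in the basal, thrombin, TRAP and TRAP after PTX comparisons, and 4 between the basal TRAP groups. The calls on Trps1, Slc20a1 and Cd44 after thrombin were also lost without the intensity trend (adjusted p = 0.0725, 0.0754 and 0.084) and with the arrays of the contrast alone (0.0984, 0.0679 and 0.0677). Trps1 lost it with centred arrays (0.0647) and quantile normalization (0.0573), and Cd44 with the replicate block (0.0599). After TRAP, Stc1 lost it without a filter (0.0621) and Stc1 and Fbn1 with quantile normalization (0.0659 and 0.0694), and Fbn1 without the trend (0.0658). No result that was called changed sign under any alternative run. Alpl and Comp are dim, and a change in Alpl could not be measured with 2 arrays at these signals.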
